A study of Mus musculus with 9 samples.

Results

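*Adamts1*, *Adamts2*, *Adamts4*, *Adamts5*, *Adamts12*, *Adamts15* and *Adam12* encode metalloproteinases that act on the extracellular matrix or at the cell surface. They were taken by symbol from the gene list that all 9 libraries share, 7 of its 54534 genes, and each was read in every library and cell class. ADAMTS enzymes are secreted zinc proteases whose thrombospondin motifs hold them to the matrix. ADAMTS1, ADAMTS4, ADAMTS5 and ADAMTS15 cleave the large proteoglycans aggrecan and versican, and ADAMTS4 and ADAMTS5 are the aggrecanases best known for cartilage loss in arthritis. ADAMTS2 removes the amino-terminal propeptide of fibrillar procollagens, and ADAMTS12 has been linked to the cartilage protein COMP. ADAM12 is a transmembrane protease that sheds growth factor precursors and cleaves binding proteins of insulin-like growth factors. The libraries count RNA, so nothing here measures protease protein or activity.

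All cells came from the synovial joint of *Gdf5-Cre;Tom;Pdgfrα-H2BGFP* mice aged 11 weeks (steady state) or 12 weeks (injured). Every group carries the Cre, the tdTomato (Tom) reporter and the nuclear GFP reporter. Tom marks descendants of the *Gdf5*-expressing embryonic joint interzone, and GFP is driven by *Pdgfrα*. After collagenase digestion, live cells were sorted into Tom+ (*Gdf5*-lineage) and Tom-GFP+ (*Pdgfrα*+ cells outside that lineage) and profiled by 10x Genomics 5' single-cell RNA sequencing. The steady state had 2 Tom+ libraries and 1 Tom-GFP+ library from naive knees. The injured state had 4 Tom+ and 2 Tom-GFP+ libraries taken 6 days after the right knee was opened and the cartilage of the trochlear groove was scratched through its full thickness. There was no sham-operated group, so opening of the joint and cartilage injury cannot be told apart. Each library came from 1 mouse by the study's description, with Tom-GFP+ mice matched to Tom+ mice, but the labels do not tie the libraries to animals. The p-values therefore measure the spread between these libraries.

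The files held 5161 cell barcodes, of which 4788 passed a filter on genes, unique molecular identifiers (UMIs) and mitochondrial share, and 12 barcode sequences occurred in more than 1 library. Median depth ran from 8050.5 to 18567 UMIs per cell and was lower in the 3 steady-state libraries than in each of the 6 injured ones. Tom+ injured 1 stood apart. It was the deepest library, 24.6% of its sublining fibroblasts were in cycle against at most 10.3% elsewhere, and 71.8% of them held a *Lrrc15* UMI. Its summed immediate early genes, which respond to tissue dissociation, were also the lowest, at 3929 CPM (UMIs scaled to the class total, defined below) against 6115 to 12852 CPM in the sublining fibroblasts of the other libraries. Cells were classed by marker genes, none of them among the 7 genes. The classes were sublining fibroblasts (*Thy1* or *Cd34*, 2961 cells), lining fibroblasts or FLS (*Prg4* with *Clic5*, *Tspan15*, *Htra4*, *Col22a1* or *Itga6*, 745 cells), *Prg4*+ *Thy1*-negative cells without *Clic5*, *Tspan15* and *Cd34* (142), tenocyte-lineage (132), chondrocyte-lineage (121), osteoblast-lineage (112), immune (110), mural (90) and endothelial cells (22). The *Prg4*+ *Thy1*-negative cells could hold other lining markers, and their median was 1 lining marker. Some gates were loose: 92 of all kept cells held exactly the 3 tenocyte markers required, and 85 exactly the 3 osteoblast markers. An earlier gate may have taken some of these cells, and the classes held 132 and 112 cells.

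Levels are given as CPM, the UMIs of a gene divided by all UMIs of the cells of 1 class in 1 library and scaled to the usual fixed total. Differences are log2 fold changes fitted on the summed UMIs with edgeR's quasi-likelihood test, with a p-value adjusted by Benjamini-Hochberg over all genes tested. The standard error (SE) was worked back from the test, as the absolute log2 fold change divided by the square root of the F statistic. A gene is said to pass at an adjusted p of 0.05.

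In sublining fibroblasts after injury, *Adam12* rose from near the limit of detection in Tom+ cells. It also passed in Tom-GFP+ cells, where the steady state had 1 library and the call was lost in 9 of 22 alternatives. In Tom+ cells *Adamts4* also rose and *Adamts5* fell, while *Adamts1*, *Adamts2*, *Adamts12* and *Adamts15* did not pass the test. The fall of *Adamts5* had a similar size in Tom-GFP+ cells but did not pass there. Of 12983 genes tested in Tom+ sublining fibroblasts 1874 passed (14.4%, with 7.26% higher and 7.18% lower), against 3 of the 7 genes, 2 higher and 1 lower. The count over all genes fell to 187 without Tom+ steady state 1, 133 without Tom+ steady state 2, 893 without Tom+ injured 2 and 924 without Tom+ injured 3. In Tom-GFP+ cells, with 2 injured libraries against 1, 140 genes passed (1.08%), against 1 of the 7. That count was 1119 without Tom+ injured 1 and at most 68 without Tom+ injured 2 or 3, either Tom+ steady-state library or either Tom-GFP+ injured library.

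*Adam12* (ENSMUSG00000054555) lies on the minus strand of chromosome 7, from 133883199 to 134232146 on GRCm38, the build used for all positions here. In Tom+ sublining fibroblasts it was at 98.0, 55.3, 31.4 and 47.3 CPM in injured libraries 1 to 4 and at 1.41 and 1.03 CPM in the steady-state libraries, which held 3 UMIs each. In Tom-GFP+ cells it was at 74.5 and 76.9 CPM in the injured libraries and at 4.85 CPM (14 UMIs) in the steady-state library. Every injured library lay above every steady-state library in both lineages, and Tom+ injured 1, the library that stood apart, was the highest. The log2 fold change in Tom+ cells was 5.62 (SE 0.62, adjusted p = 0.00187, higher in 4 of 4 injured libraries). Because the steady-state libraries held so few UMIs, the ratio of the pooled counts is given with its exact 95% counting interval: 1596 UMIs after injury against 6 in steady state, a ratio of 58.6 (26.9 to 159.9). This interval, like those of the other pooled ratios below, covers counting error and not the spread between libraries. Without Tom+ injured 1 the log2 fold change was 5.20.

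In Tom-GFP+ cells the log2 fold change of *Adam12* was 4.04 (SE 0.70, adjusted p = 0.0396, where a single steady-state library had to borrow its spread from the other groups). The pooled ratio was 15.5 (9.19 to 28.6). This call is close to the threshold. It was lost without Tom-GFP+ injured 1 (adjusted p = 0.162) or 2 (0.0887), Tom+ steady state 1 (0.0729) or 2 (0.0727), and Tom+ injured 2 (0.0623) or 3 (0.0506), while the log2 fold change stayed between 2.86 and 5.14 over all 22 alternatives.

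The rise of *Adam12* could be seen in the number of cells as well. UMIs of *Adam12* were detected in 18 of 955 steady-state sublining fibroblasts (1.89%, exact 95% interval 1.12 to 2.96, median 8245 UMIs per cell) and in 862 of 2006 injured ones (43.0%, 40.8 to 45.2, median 13860 UMIs). Thinning to 5000 UMIs left out the cells with fewer UMIs, here and below. The shares were then 0.988% of 810 steady-state and 21.7% of 1901 injured cells. In immune cells of injured libraries, which should lack the gene, the share was 0.962% (median 8447 UMIs), and in injured lining fibroblasts it was 1.60% (median 17540 UMIs). The steady-state share in sublining fibroblasts is thus near the level of a cell type without the gene. This does not hold for every steady-state class. Of 65 steady-state osteoblast-lineage cells 8 held a UMI of *Adam12* (12.3%, 5.47 to 22.8, median 6802 UMIs). These intervals cover counting error only.

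*Adamts5* (ENSMUSG00000022894, chromosome 16, 85856173 to 85901828, minus strand) went the other way. It was at 290.5 and 260.4 CPM in Tom+ steady-state sublining fibroblasts and at 58.0, 78.2, 88.5 and 84.0 CPM after injury, so that the groups did not overlap. In Tom-GFP+ cells it was at 282.7 CPM in the steady state and at 120.2 and 83.2 CPM after injury, without overlap between 2 libraries and 1. The log2 fold change was -1.79 in Tom+ cells (SE 0.22, adjusted p = 0.00300, a 3.46-fold lower level in 4 of 4 injured libraries) and -1.39 in Tom-GFP+ cells (SE 0.31, adjusted p = 0.0680). The Tom-GFP+ value passed with DESeq2 (adjusted p = 0.00646), with the deposited list format taken as a block (0.0172), without a filter on low counts (0.000242) and without Tom+ injured 1 (0.00564). Its adjusted p lay between 0.000242 and 0.716 over the alternatives. In the Tom-GFP+ comparison the block on format took its offset from Tom+ injured 1 against the other Tom+ injured libraries. UMIs of *Adamts5* were detected in 74.9% of steady-state and 48.5% of injured sublining fibroblasts, against 1.92% of injured immune cells. Although the injured cells were deeper, fewer of them held a UMI, and thinning to 5000 UMIs gave 63.5% and 27.4%. In Tom-GFP+ sublining fibroblasts only *Adamts2* of the 7 genes had overlapping groups, so a lack of overlap there does not set *Adamts5* apart. The share of all genes whose groups did not overlap was not computed in any comparison.

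*Adamts4* (ENSMUSG00000006403, chromosome 1, 171250421 to 171260637, plus strand) was at 5.16 and 6.16 CPM in Tom+ steady-state sublining fibroblasts and at 17.6, 20.2, 9.43 and 16.5 CPM after injury. The log2 fold change was 1.53 (SE 0.37, adjusted p = 0.0293, a 2.89-fold higher level in 4 of 4 injured libraries). In Tom-GFP+ cells the levels were 7.62 CPM before and 14.2 and 22.5 CPM after injury, a log2 fold change of 1.32 that did not pass (SE 0.49, adjusted p = 0.171). The Tom+ call was lost in 9 of 24 alternatives, among them without Tom+ steady state 1 (adjusted p = 0.173) or 2 (0.136) and without Tom+ injured 2 (0.0696) or 4 (0.0526). Its adjusted p ranged from 0.00025 to 0.257 and its log2 fold change from 1.22 to 1.83. The share of sublining fibroblasts with a UMI was 4.71% in the steady state and 19.7% after injury, or 2.72% and 6.68% after thinning, against 0.962% in injured immune cells.

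**Figure D1:**
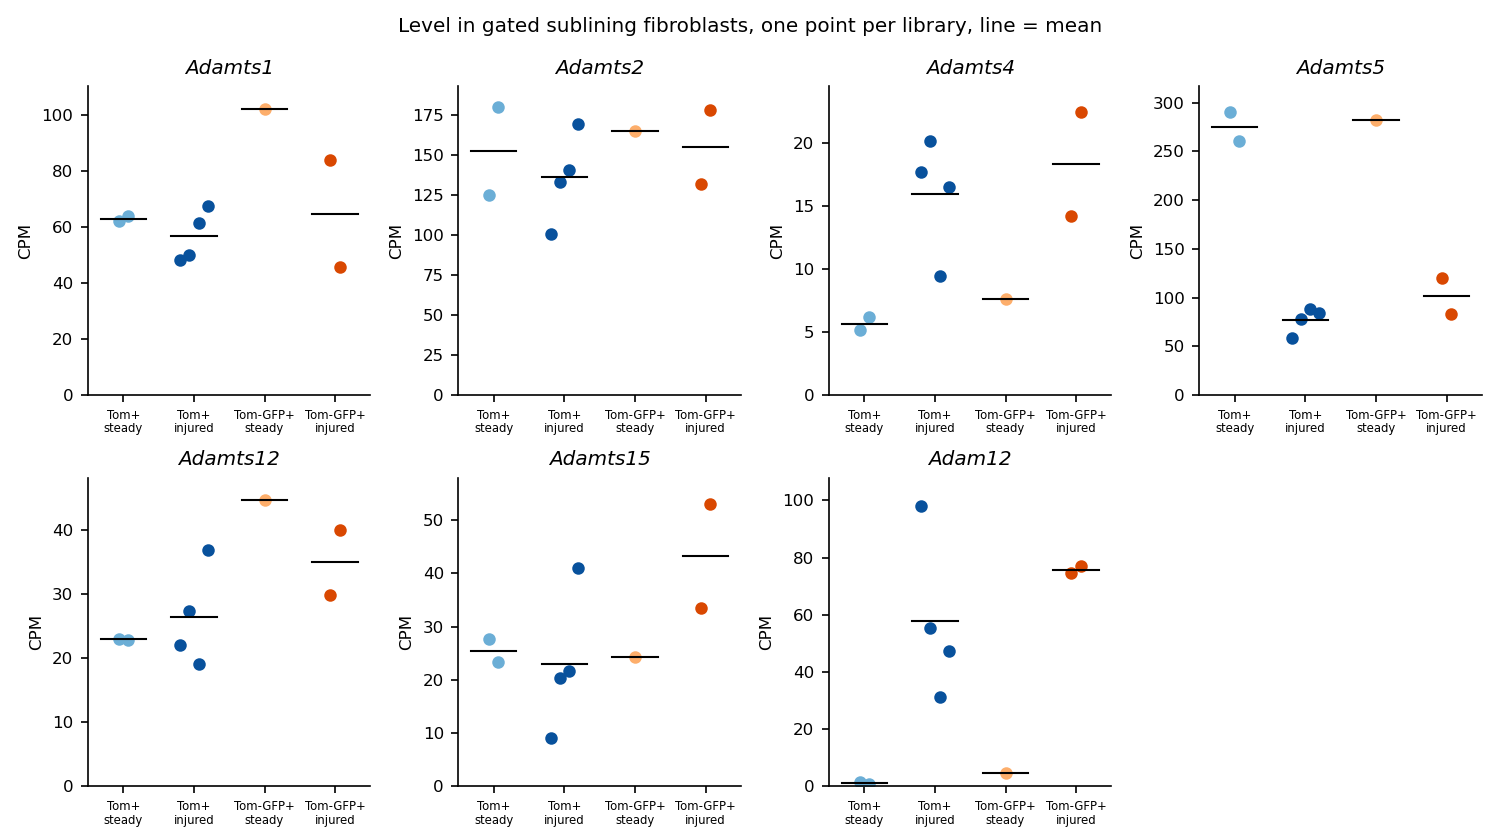
Level of each of the 7 genes in sublining fibroblasts in CPM on a linear axis from 0, with 1 point per library in the 4 groups and a line at the mean of each group. *Adam12* and *Adamts4* are higher and *Adamts5* is lower in all 4 injured Tom+ libraries than in both steady-state ones, while for *Adamts1*, *Adamts2*, *Adamts12* and *Adamts15* the Tom+ groups overlap.

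The other 4 genes did not pass in either lineage, and all 4 had overlapping Tom+ groups. *Adamts2* (ENSMUSG00000036545, chromosome 11, 50602084 to 50807573, plus strand), the procollagen N-proteinase, was at 136.0 ± 28.5 CPM (SD, n = 4) after injury and 152.7 ± 38.7 CPM (n = 2) in steady-state Tom+ cells, and its log2 fold changes were -0.12 in Tom+ and -0.01 in Tom-GFP+ cells. *Adamts1* (ENSMUSG00000022893, chromosome 16, 85793827 to 85803113, minus strand) was at 56.7 ± 9.18 CPM (n = 4) and 62.97 ± 1.45 CPM (n = 2), with log2 fold changes of -0.11 and -0.57. *Adamts12* (ENSMUSG00000047497, chromosome 15, 11064790 to 11349231, plus strand) was at 26.4 ± 7.85 CPM (n = 4) and 22.96 ± 0.045 CPM (n = 2), with log2 fold changes of 0.24 and -0.28. The standard errors of these 3 genes were 0.26 to 0.28 in Tom+ cells, so each change was smaller than its error there.

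*Adamts15* (ENSMUSG00000033453, chromosome 9, 30899155 to 30922452, minus strand) varied widely between libraries. It was at 9.06, 20.3, 21.6 and 41.1 CPM in the Tom+ injured libraries and at 27.7 and 23.3 CPM in the steady state. In Tom-GFP+ cells it was at 33.5 and 53.0 CPM after injury and 24.2 CPM in the steady state. Tom+ injured 1 was the lowest and Tom+ injured 4 the highest of the Tom+ libraries, and neither log2 fold change, of -0.12 (SE 0.51) and 0.90 (SE 0.72), passed.

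*Adamts1* and *Adamts5* are neighbours on chromosome 16. They lie 53.1 kb apart on the same strand with no protein-coding gene between them. In Tom+ cells *Adamts5* fell to between 58.0 and 88.5 CPM in injured libraries while *Adamts1* overlapped between the states. In Tom-GFP+ cells both genes were lower in the injured libraries, *Adamts1* at 45.6 and 83.8 CPM against 102.2 CPM in the steady state, and neither passed. The difference between their changes was not tested.

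Some features of the libraries move with the injured state. The summed level of the markers of *Dpp4*+ universal fibroblasts (*Dpp4*, *Cd248*, *Sema3c*, *Anxa3*, *Limch1*, *Efhd1*, *Pi16*) was 2324 to 3195 CPM in the sublining fibroblasts of the 3 steady-state libraries and 456 to 1307 CPM in the 6 injured ones. Sublining fibroblasts outside the universal gate alone gave *Adam12* 5.16, *Adamts5* -1.86 and *Adamts4* 1.30 (adjusted p = 0.0616) in Tom+ cells. Universal fibroblasts alone gave *Adamts5* -1.03 (adjusted p = 0.0531), a smaller fall that did not pass, in sums of 24 to 125 cells. Immune markers summed to 0 to 4.72 CPM in sublining fibroblasts of all 9 libraries. Cells with 3 or more of these markers had already been classed as immune, so the gate itself keeps this sum low. Mural markers summed to 248 to 288 CPM in steady-state and 55.2 to 110 CPM in injured sublining fibroblasts, and their part in the result for *Adamts4* was not tested. Osteoblast-lineage markers summed to 109 to 247 CPM in steady-state and 10.5 to 71.3 CPM in injured sublining fibroblasts. A *Lrrc15* UMI was found in 0.554% to 3.23% of steady-state and 32.4% to 71.8% of injured sublining fibroblasts, and 0% against 0.524% to 24.6% were in cycle. *Lrrc15*-negative sublining fibroblasts alone gave *Adamts4* 1.22 in Tom+ cells, which did not pass (adjusted p = 0.0845), and *Adam12* 2.86 in Tom-GFP+ cells. The Tom+ calls for *Adam12* and *Adamts5* held in this subset. With cycling cells left out, the Tom+ calls for *Adam12*, *Adamts5* and *Adamts4* held. The part of the osteoblast-lineage markers in the results was not tested. Age and depth follow the state, and so in part does the layout of the gene lists, an older one in the 3 steady-state libraries and Tom+ injured 1. The part of age was not tested, and for depth the shares of cells thinned to 5000 UMIs, given above, lay on the same sides. With the format as a block *Adam12* was at 6.36, *Adamts5* at -2.22 and *Adamts4* at 1.65 in Tom+ cells. Tom+ injured 1 was the only injured library with the older layout, so with this block the Tom+ contrast rested on that library alone. The block therefore cannot tell the layout apart from what sets Tom+ injured 1 apart. In bulk sums over a class, fewer expressing cells and less RNA per cell cannot be told apart without the shares of cells given above.

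**Figure D2:**
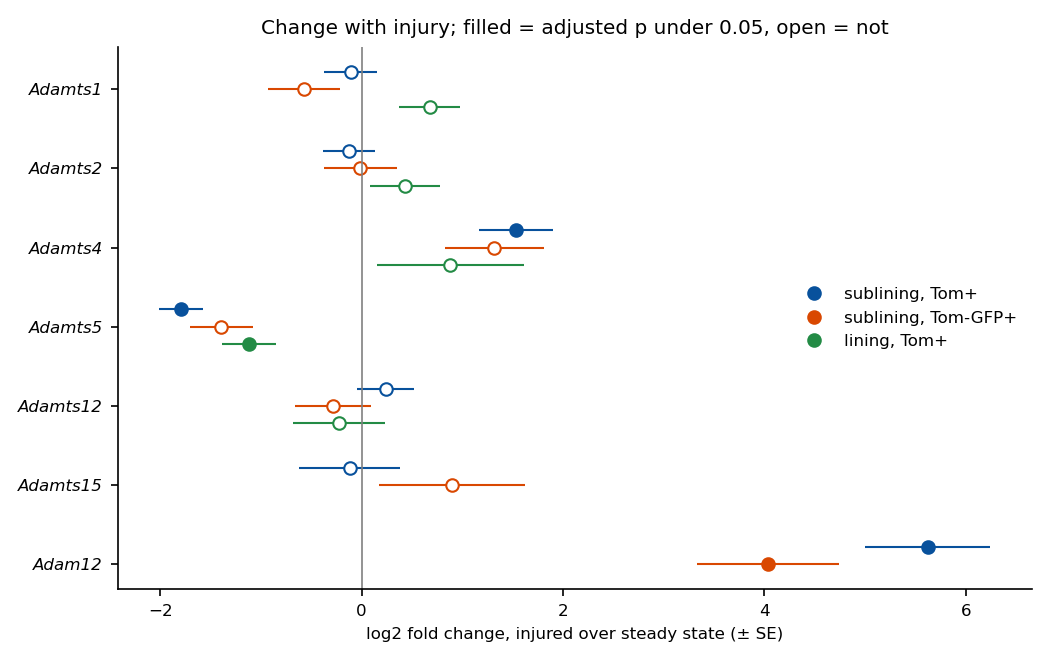
Log2 fold change of injured over steady-state libraries for the 7 genes (x axis, bars of 1 SE) in sublining fibroblasts of both lineages and, where tested, in Tom+ lining fibroblasts, with filled points for values that passed and open points for those that did not. *Adam12* is at 5.62 and 4.04 in the sublining, *Adamts5* is below 0 in all 3 settings, and *Adamts4* is above 0 in all 3 and filled in Tom+ sublining fibroblasts alone.

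The sort also allowed the lineages to be compared within a state. In injured sublining fibroblasts 0 of the 7 genes differed between Tom+ and Tom-GFP+ cells, and in the steady state 0 of the 7. Across all 12983 genes edgeR called 1 in the injured state (0.0077%, 653 at an unadjusted p under 0.05, 52 by DESeq2) and 3 in the steady state (0.0231%, 600 unadjusted, 26 by DESeq2). Mean *Adam12* was 58.0 ± 28.5 CPM (n = 4) in Tom+ and 75.7 ± 1.69 CPM (n = 2) in Tom-GFP+ injured cells, well within the spread between the Tom+ libraries. Mean *Adamts5* was 77.2 ± 13.5 CPM and 101.7 ± 26.2 CPM. Whether injury acted differently in the lineages was tested by an interaction, in which 0 of the 7 genes passed (0.0% of all genes in edgeR, 230 genes unadjusted, 1 in DESeq2). For *Adam12* the difference of the log2 fold changes, Tom+ minus Tom-GFP+, was 1.59 (SE 1.00), and for *Adamts5* it was -0.40 (SE 0.40).

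In lining fibroblasts, the cells that make lubricin, *Adamts5* fell after injury and *Adam12* stayed near 0. Tom+ lining fibroblasts were compared over 9655 genes, of which 350 passed (3.63%), a count that fell to 28 without Tom+ steady state 1 and rose to 580 without Tom+ injured 1. *Adam12* and *Adamts15* did not pass the filter on low counts and were not tested, and 1 of the other 5 genes was called. *Adamts5* was at 291.8 and 218.3 CPM in the steady-state libraries (20 and 35 cells) and at 119.1, 65.8, 142.5 and 123.0 CPM after injury, so that all 4 injured libraries were lower. The log2 fold change was -1.12 (SE 0.27, adjusted p = 0.0458). This call is fragile. It was lost in 10 of 21 alternatives, among them without Tom+ steady state 1 (adjusted p = 0.277) or 2 (0.139), Tom+ injured 3 (0.0512) or 4 (0.0686), Tom-GFP+ injured 1 (0.0757) or 2 (0.0773), and with list format as a block (0.264). Over these alternatives the adjusted p ranged from 3.33e-05 to 0.277, and the log2 fold change from -1.45 to -0.88.

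*Adam12* had 0 UMIs in lining fibroblasts of both Tom+ steady-state libraries, which allows up to 9.95 and 5.65 CPM if 3 UMIs are taken as the limit. After injury it was at 3.19, 0.604, 0.643 and 0 CPM in Tom+ and at 1.74 and 2.46 CPM in Tom-GFP+ lining fibroblasts. These levels rest on 14 UMIs in 687 cells in all, and no fold is given. *Adamts1* was at 23.2 and 28.2 CPM in the steady state and at 30.1 to 47.3 CPM after injury in Tom+ lining cells, without overlap, but did not pass (adjusted p = 0.236). Immediate early genes summed to 9626 and 9665 CPM in the lining cells of Tom+ steady-state libraries and to 4262 to 8735 CPM in the injured ones, a shift whose part in these values was not tested.

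Osteoblast-lineage cells could be compared in 2 injured and 2 steady-state Tom+ libraries of 13 to 43 cells, and 43 of 3084 genes passed (1.39%). Of the 7 genes only *Adamts2* and *Adamts5* were tested, and neither was called. *Adamts5* was at 148.0 and 149.7 CPM in the steady state and at 33.4 and 43.7 CPM after injury, on 4 and 13 UMIs. The groups did not overlap, and the log2 fold change was -1.79 (SE 0.35, adjusted p = 0.0787), which passed without the filter on low counts (0.0271) and with looser gates (0.0133). Its adjusted p lay between 0.0133 and 0.359. This class had in Tom-GFP+ libraries too few cells for a comparison. In tenocyte-lineage cells, where injury was not tested, *Adamts5* was at 158.8 and 149 CPM in Tom+ steady state 2 and Tom-GFP+ steady state 1 (13 and 14 cells) and at 30.4 to 47.2 CPM in the 4 injured libraries with enough cells. *Adam12* was at 0 in both of these steady-state libraries, which allows up to 25.1 and 22.4 CPM, and at 35.0 to 132.4 CPM in the injured ones. Both genes thus lay on the same sides as in sublining fibroblasts.

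Each class was then set against sublining fibroblasts within the injured libraries, in a fit over 8597 genes that took the library as a block. The 7 genes fell into different patterns. *Adam12* was high in sublining, tenocyte-lineage and mural cells and nearly absent from lining fibroblasts. Of the fitted classes, which leave out immune and endothelial cells, *Adamts5* had its highest fitted level in lining fibroblasts and its lowest in mural cells, and *Adamts4* and *Adamts12* had theirs highest in mural cells.

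Lining fibroblasts differed from sublining fibroblasts in 35.6% of all genes, and in 6 of the 7 genes. Of these, 5 were lower in the lining, in 6 of 6 libraries each, where 19.2% of all genes were lower. *Adam12* was at 63.9 ± 23.9 CPM (SD, n = 6) in sublining fibroblasts and rested on 14 UMIs in lining fibroblasts. Its log2 fold change was -5.71 (SE 0.38), and the ratio of pooled counts, sublining over lining, was 61.5 (36.6 to 112.7). *Adamts15*, at 29.8 CPM in the sublining and 3.44 CPM in the lining, was lower by 2.94 on the log2 scale (SE 0.34). The same held for *Adamts2* (142.3 and 38.6 CPM, log2 fold change -2.05, SE 0.20), *Adamts4* (16.7 and 7.27 CPM, -1.19, SE 0.21) and *Adamts12* (29.3 and 15.7 CPM, -0.96, SE 0.22), with adjusted p-values of 0.000876 or less for all 5. These 5 calls held in all 19 alternatives.

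*Adamts5* was the exception. It was higher in the lining in 5 of 6 libraries, at 138.3 against 85.4 CPM, a log2 fold change of 0.54 (SE 0.17, adjusted p = 0.0151). In Tom+ injured 2 it was lower, at 65.8 CPM in the lining and 78.2 CPM in the sublining. The call was lost with DESeq2 (adjusted p = 0.0603), with looser gates (0.266) and without Tom-GFP+ injured 2 (0.0848), and its adjusted p lay between 0.00305 and 0.266. In the steady state the 2 lining sums were at 255.0 CPM on average against 277.9 CPM in sublining fibroblasts, and the difference did not pass. *Adamts1* was lower in the lining in 5 of 6 injured libraries but did not pass (log2 fold change -0.46, SE 0.19, adjusted p = 0.0645). It passed in 4 of 19 alternatives, in a range of 0.012 to 0.279.

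In the steady-state libraries 4 of the 7 genes passed the filter on low counts, over 5247 genes tested. Of these *Adamts2* was lower in lining than in sublining fibroblasts, at 24.5 against 156.7 CPM (log2 fold change -2.73, SE 0.28, adjusted p = 0.000120, lower in 2 of 2 libraries), where 17.6% of all genes passed. This call was lost with stricter gates alone (adjusted p = 0.0535, range 4.82e-14 to 0.0535). *Adamts1* was at 25.7 against 76.0 CPM and did not pass (-1.61, SE 0.53, adjusted p = 0.0615), although it did in 6 of 17 alternatives. The steady-state lining sums held 20 and 35 cells.

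*Prg4*+ *Thy1*-negative cells lie between the lining and sublining gates. They differed from sublining fibroblasts in 2.34% of genes and in 1 of the 7. *Adam12* was at 84.8, 3.07, 0 and 11.2 CPM in Tom+ injured libraries 1 to 4 (28, 58, 11 and 18 cells). The level was thus carried by Tom+ injured 1, yet it was lower than in the sublining of the same library in 4 of 4. The log2 fold change of -1.48 (SE 0.40, adjusted p = 0.0447) became -3.39 without Tom+ injured 1 and -0.96 without Tom+ injured 2 (adjusted p = 0.379), and the call was lost in 10 of 19 alternatives, also without Tom+ injured 3 (0.141) or 4 (0.156) and Tom-GFP+ injured 1 (0.0569) or 2 (0.075), in a range of 9.89e-07 to 0.379. The other 6 genes did not pass, with log2 fold changes from -0.82 (*Adamts2*) to 0.10 (*Adamts1*).

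Mural cells, the smooth muscle cells and pericytes of vessel walls, were present in Tom+ and not in Tom-GFP+ libraries, and only Tom+ injured 1 and 2 held enough of them (39 and 23 cells). They differed from sublining fibroblasts in 18.1% of genes and in 4 of the 7. *Adamts12* was at 121.7 and 182.2 CPM against 22.1 and 27.4 CPM in sublining fibroblasts of the same libraries (log2 fold change 2.15, SE 0.32, adjusted p = 1.84e-05). *Adamts4* was at 67.6 and 142.2 CPM against 17.6 and 20.2 CPM (2.10, SE 0.29, adjusted p = 8.03e-06). *Adamts1* was at 88.9 and 155.5 CPM against 48.2 and 49.8 CPM (1.18, SE 0.34, adjusted p = 0.0133). The call for *Adamts1* was lost with looser gates (0.57, adjusted p = 0.335) and with gates on thinned cells (0.143), in a range of 0.00407 to 0.335. *Adamts5* was nearly absent from mural cells, with 4 UMIs in Tom+ injured 1 and 0 in Tom+ injured 2. Its pooled level was 12.0 times (4.69 to 44.3) higher in sublining fibroblasts of these libraries, and the log2 fold change was -3.81 (SE 0.63), or -1.57 with looser gates. *Adam12*, at 77.3 and 84.4 CPM, and *Adamts2*, at 179.6 and 195.5 CPM, did not differ beyond the error from sublining fibroblasts. *Adamts15* did not pass (0.53, SE 0.62). The 22 endothelial cells were too few for sums per library, but both *Adamts1* and *Adamts4* were detected in 13 of the 19 from injured libraries (68.4%, exact 95% interval 43.5 to 87.4), against 35 of 76 injured mural cells (46.1%, 34.6 to 57.9). The endothelial cells were deeper, with a median of 17100 against 9026 UMIs, and after thinning to 5000 UMIs the shares were 58.8% and 30% for *Adamts1* and 41.2% and 28.6% for *Adamts4*. These 22 cells also held a median of 5 mural markers, where the mural gate needed 4, and were classed as endothelial because that gate came first. The 2 classes were thus not cleanly separated, and the part of mural RNA or doublets in these shares was not tested.

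The promoters of *Adamts1* and *Adamts12*, which were both higher in mural cells, are shown here for their sequence features. They are the 250 bases before the RefSeq start on GRCm38.p6, written 5′ to 3′ on the strand of the gene, with TATAAA and GGGCGG in capitals wherever these letters or their reverse complement occur. *Adamts1* spans chr16:85803114-85803363 on the minus strand and *Adamts12* chr15:11064523-11064772 on the plus strand.
Adamts1: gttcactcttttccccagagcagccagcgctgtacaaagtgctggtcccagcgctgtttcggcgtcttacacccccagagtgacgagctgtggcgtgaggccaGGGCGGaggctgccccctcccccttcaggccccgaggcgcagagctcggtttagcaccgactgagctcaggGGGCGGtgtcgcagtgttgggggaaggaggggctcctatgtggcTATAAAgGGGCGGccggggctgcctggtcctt
Adamts12: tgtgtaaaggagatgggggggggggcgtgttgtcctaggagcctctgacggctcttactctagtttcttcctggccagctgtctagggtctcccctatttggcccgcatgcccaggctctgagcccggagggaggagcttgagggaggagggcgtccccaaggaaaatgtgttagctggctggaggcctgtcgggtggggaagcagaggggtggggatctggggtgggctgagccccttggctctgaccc
The window of *Adamts1* held 1 TATAAA, 32 bases before the start, and 3 GGGCGG. The window of *Adamts12* held neither. Among 32817 RefSeq promoter windows of this length, 12.4% held TATAAA and 32.7% held GGGCGG on either strand. That of *Adamts2*, the third of the 7 genes with an entry, held 5 GGGCGG and no TATAAA. A match of letters is a description and not a binding site.

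Chondrocyte-lineage cells differed from sublining fibroblasts in 25.0% of genes and in 6 of the 7. All 6 were lower, as were 12.9% of all genes. *Adamts5*, an aggrecanase studied mostly in cartilage, was at 8.18 to 30.5 CPM in the 5 injured libraries with enough cells (12 to 23 each), below the sublining fibroblasts of the same library in 5 of 5 (log2 fold change -2.04, SE 0.39, adjusted p = 0.000254). In the steady state it was at 21.5 and 0 CPM (5 and 0 UMIs) in chondrocyte-lineage cells against 277.9 CPM in sublining fibroblasts on average (-4.05, SE 0.47, adjusted p = 0.000154). *Adam12* was lower in 5 of 5 injured libraries (-1.80, SE 0.48, adjusted p = 0.00688). These 3 calls held in every alternative that could be fitted. *Adamts15* rested on 3 UMIs in these cells, and its pooled level was 6.76 (2.30 to 32.9) times higher in the sublining fibroblasts of the same libraries. *Adamts4* rested on 4 UMIs, with a ratio of 3.78 (1.47 to 13.9). The calls for *Adamts15* (-2.88), *Adamts4* (-1.88), *Adamts1* (-1.17) and *Adamts2* (-1.12, lower in 4 of 5 libraries) were each lost in 1 to 6 of 18 alternatives. Without Tom+ injured 4, *Adamts2* (adjusted p = 0.0744), *Adamts4* (0.14) and *Adamts15* (0.052) no longer passed, and without Tom+ injured 1, *Adamts4* (0.081) and *Adamts1* (0.144) did not. *Adamts1* was also lost without Tom+ injured 3 (0.0867) and Tom-GFP+ injured 1 (0.123), and *Adamts15* without Tom-GFP+ injured 1 (0.0514). The adjusted p ranged from 9.82e-05 to 0.358 for *Adamts1*, 4.45e-07 to 0.0744 for *Adamts2*, 0.00508 to 0.14 for *Adamts4* and 6.12e-06 to 0.052 for *Adamts15*. *Adamts12* did not pass. In the steady state *Adamts2* was lower as well, at 84.7 against 156.7 CPM (-0.99, SE 0.28, adjusted p = 0.0283), where 21.6% of genes passed. That call was lost in 4 of 15 alternatives, with adjusted p-values from 0.00164 to 0.408, and one of these left out Tom+ steady state 1 (0.096).

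In osteoblast- and tenocyte-lineage cells 0 of the 7 genes passed against sublining fibroblasts in the injured state, where 5.42% and 0.756% of all genes did, and 0 of the 4 tested in the steady state, where 11.1% and 2.84% did. *Adamts5* in steady-state osteoblast-lineage cells was close to the threshold, at 148.9 against 277.9 CPM (log2 fold change -0.995, SE 0.29, adjusted p = 0.0518, lower in 2 of 2 libraries). It passed in 7 of 14 alternatives, among them without Tom-GFP+ steady state 1 (0.00632), and its adjusted p lay between 0.000635 and 0.0699. In osteoblast-lineage cells *Adamts1* was at 16.7 and 6.73 CPM in the injured libraries and did not pass (log2 fold change -2.26, SE 0.76, adjusted p = 0.0935). *Adamts15* had 0 UMIs there, which with 3 UMIs as the limit allows up to 25.0 and 10.1 CPM. In tenocyte-lineage cells *Adamts5* was lower than in the sublining in 4 of 4 injured libraries without passing (-1.05, SE 0.28, adjusted p = 0.0845), and *Adam12*, at 77.7 CPM on average against 63.9 CPM, did not pass. *Adamts2* was at 168.2 and 242.0 CPM in injured osteoblast-lineage cells and did not pass either. In immune cells, with 3 injured libraries of 11 to 47 cells, all 7 genes were at 0 to 9.78 CPM.

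**Figure D3:**
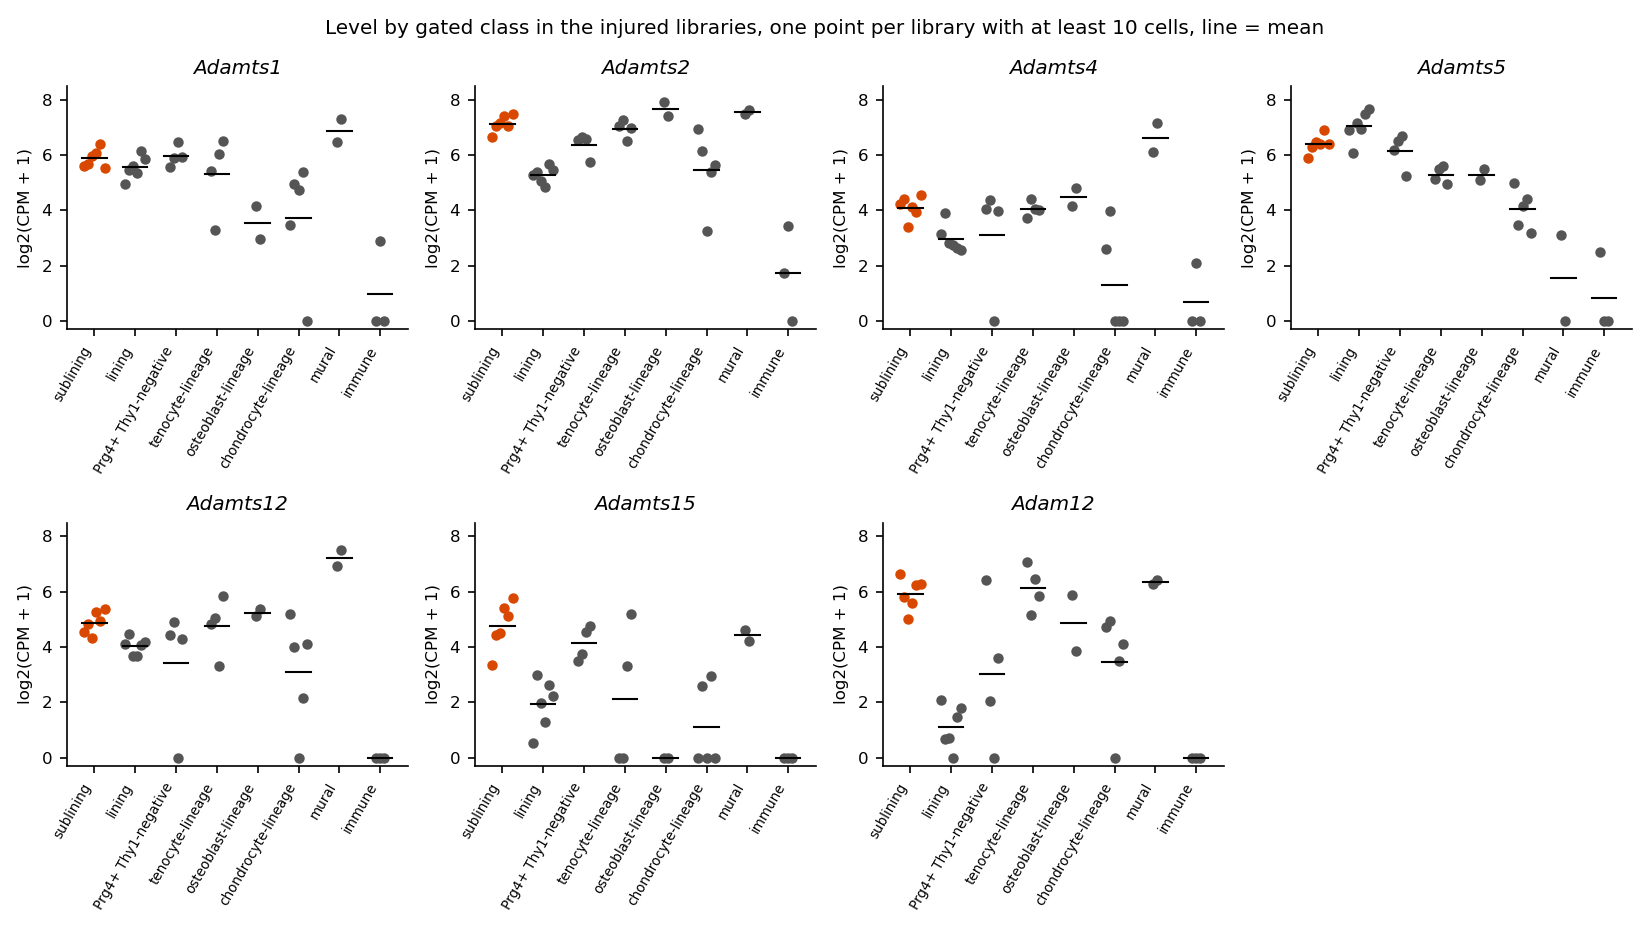
Level of the 7 genes by cell class (x axis) in the injured libraries, 1 point per library with at least 10 cells of the class, on a log2 scale after adding 1 CPM, with sublining fibroblasts in orange, other classes in grey and lines at the mean. *Adam12* is near 0 in lining and immune cells and between 31.4 and 98.0 CPM in sublining fibroblasts, and *Adamts12* and *Adamts4* reach 182.2 and 142.2 CPM in mural cells.

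Few neighbours in the order of fitted levels differed. For *Adam12* the order in injured libraries was tenocyte-lineage, sublining, mural, osteoblast-lineage, *Prg4*+ *Thy1*-negative, chondrocyte-lineage and lining, and only the last step passed (adjusted p = 0.000598, where 34.4% of all genes differed between chondrocyte-lineage and lining cells). For *Adamts5* it was lining, sublining, *Prg4*+ *Thy1*-negative, osteoblast-lineage, tenocyte-lineage, chondrocyte-lineage and mural, and only the first step passed. For *Adamts4* and *Adamts12* only the step from mural to osteoblast-lineage cells passed (adjusted p = 0.00753 and 0.0197, where 10.7% of all genes differed). For *Adamts2* only the step from chondrocyte-lineage to lining cells did (0.0289), and for *Adamts1* and *Adamts15* no step between neighbours passed.

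Among sublining fibroblasts, the *Dpp4*+ universal cells, a *Pi16*-expressing population found around vessels in many organs, were set against the other sublining cells of the same library. Of 8489 genes 18.4% passed, and so did 4 of the 7. *Adamts15* was higher in universal cells in 9 of 9 libraries, at 64.6 ± 26.9 CPM (SD, n = 9) against 20.8 ± 12.3 CPM, a log2 fold change of 1.74 (SE 0.19, adjusted p = 6.78e-06). *Adamts5* was higher in 9 of 9 libraries as well, a difference of 1.28 (SE 0.15, adjusted p = 1.15e-05). In the Tom+ steady state it was at 426.3 and 309.0 CPM in universal and 241.7 and 239.5 CPM in other cells, and after injury at 148.0 to 210.9 CPM and 52.2 to 77.5 CPM. In both subsets all 4 injured libraries lay below both steady-state ones, and universal cells were the higher subset in every library. *Adam12* was lower in universal cells in 9 of 9 libraries (-0.56, SE 0.14, adjusted p = 0.00795). In both Tom+ steady-state libraries this rested on 0 UMIs against 3 in the other cells, and in Tom-GFP+ steady state on 4 against 10. The direction in the steady state is thus near the limit of detection. *Adamts4* was lower in 8 of 9 (-0.75, SE 0.21, adjusted p = 0.0211). The call for *Adamts4* was lost in 4 of 18 alternatives, among them without Tom+ injured 4 (0.0594) and Tom-GFP+ steady state 1 (0.0598), in a range of 0.00191 to 0.079, and that for *Adam12* with looser gates (-0.35, adjusted p = 0.0961, range 3.51e-05 to 0.0961). *Adamts15* and *Adamts5* passed in all 19 alternatives. *Adamts1* (-0.20), *Adamts2* (-0.01) and *Adamts12* (-0.24) did not pass.

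**Figure D4:**
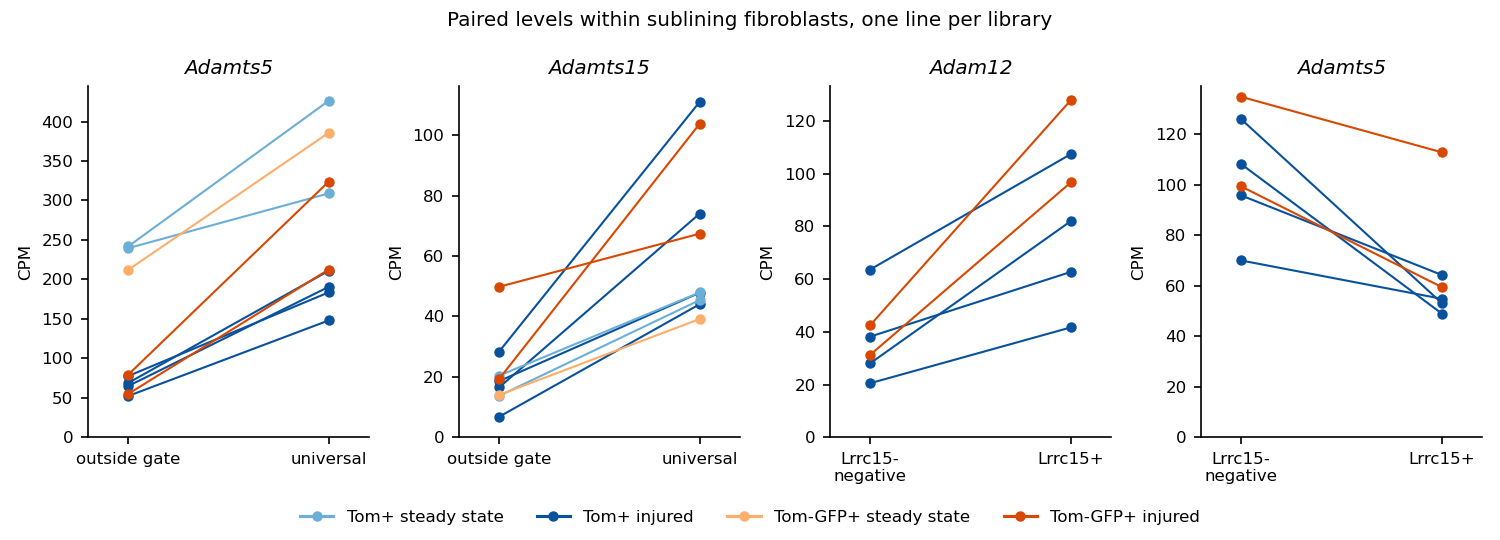
Level in CPM (y axis, from 0) in paired subsets of sublining fibroblasts of the same library, joined by 1 line per library and coloured by group. *Adamts5* and *Adamts15* are higher in universal cells in 9 of 9 libraries, and in the 6 injured libraries *Adam12* is higher and *Adamts5* lower in *Lrrc15*+ than in *Lrrc15*-negative cells in 6 of 6.

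*Lrrc15* marks activated matrix-producing fibroblasts, and injured sublining fibroblasts were split by at least 1 *Lrrc15* UMI. *Adam12* was at 86.4 ± 31.2 CPM (n = 6) in *Lrrc15*+ and 37.4 ± 15.0 CPM in *Lrrc15*-negative cells, higher in 6 of 6 libraries by 1.19 on the log2 scale (SE 0.14). The split was chosen because a cluster with both genes was already known from these data, so this is a description. Even the *Lrrc15*-negative cells held *Adam12* at 20.5 to 63.7 CPM in injured libraries, against 1.06 to 4.89 CPM in *Lrrc15*-negative steady-state cells. *Adamts5* was lower in *Lrrc15*+ cells in 6 of 6 libraries, at 65.5 ± 23.7 against 105.6 ± 23.1 CPM, a log2 fold change of -0.71 (SE 0.13, adjusted p = 0.00402), in a comparison where 15.5% of 9643 genes passed. *Adamts2* was lower by a smaller amount in 6 of 6 libraries (-0.28, SE 0.08, adjusted p = 0.0409), a call lost without Tom+ injured 2 (0.125), 3 (0.149) or 4 (0.0532), without Tom-GFP+ injured 1 (0.0552) and with DESeq2 (0.151), in a range of 0.0262 to 0.151. *Adamts12* was also lower in 6 of 6 libraries but did not pass (-0.31, SE 0.11, adjusted p = 0.0659), and neither did *Adamts1* (-0.16), *Adamts4* (0.51) and *Adamts15* (-0.43). A deeper cell is more likely to show a *Lrrc15* UMI, and the part of depth in this split was not tested.

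The relatives, partners and substrates of these proteases were read from lists chosen by name. In injured against steady-state Tom+ sublining fibroblasts, where 7.26% of all genes rose and 7.18% fell, 2 of the 9 tested genes among the other Adamts genes rose and 0 fell. They were *Adamts14* (log2 fold change 2.30, 2.73 ± 1.45 CPM before, n = 2, and 12.5 ± 5.34 CPM after, n = 4), a procollagen N-proteinase like *Adamts2*, and *Adamts7* (1.76), the closest relative of *Adamts12*. The median of the 9 was 1.26 against 0.05 over all genes. Of 4 Adamts-like genes, which encode matrix proteins without a protease domain, *Adamtsl3* (-1.61) and *Adamtsl5* (-1.02) fell and 0 rose, with a median of -1.03. Of 9 other Adam genes, *Adam22* (-4.23, on few UMIs after injury) and *Adam33* (-2.04) fell and 0 rose, with a median of 0.09.

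Inhibitors and partners moved both ways, with 3 of 11 higher and 4 lower, against 7.26% and 7.18% of all genes, and a median of -0.25. *Timp1*, a broad inhibitor of metalloproteinases, rose from 194.6 ± 18.2 to 2149 ± 1518 CPM (log2 fold change 3.50), and its injured libraries varied widely. *Timp3*, the main tissue inhibitor of ADAMTS4 and ADAMTS5, fell from 488.9 ± 96.1 to 69.7 ± 7.37 CPM (-2.77). *Reck*, a membrane-bound inhibitor of metalloproteinases, fell by 2.30 on the log2 scale, and *Fbln1*, a matrix protein known as a cofactor of ADAMTS1, by 2.41. Of the proprotein convertases, which cut off the prodomain of these proteases, *Pcsk5* (1.31) and *Furin* (1.01) rose and *Pcsk6* (-1.49) fell.

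Among 11 tested substrates, 4 rose and 3 fell, where 14.4% of all genes changed, with a median of 0.49. *Acan*, encoding aggrecan, rose from 1.97 ± 0.125 to 91.6 ± 61.9 CPM (log2 fold change 5.56, SE 1.27), with a wide spread between the injured libraries. It is one of the chondrocyte markers used for the gates, so cells with 4 or more of those markers had been moved out of the sublining class. *Vcan*, encoding versican, rose from 129.0 ± 5.87 to 314.4 ± 120 CPM (1.33), *Hbegf*, whose product is shed by ADAM12, by 3.49, and *Bgn* by 1.40. *Igfbp3* (-1.76) and *Igfbp5* (-1.71), whose products are cleaved by ADAM12, fell, as did *Dcn* (-1.33). In the list for procollagen processing, 6 of 10 genes rose and 1 fell, with a median of 1.67. *Col1a1* (2.40), *Adamts14*, *Col3a1* (1.71) and *Col5a1* (1.69) rose while *Adamts2* itself did not pass, and the procollagen enhancer *Pcolce2* fell by 2.98. *Col1a1* and *Col3a1* also served in the gate of sublining fibroblasts. In Tom-GFP+ cells, where 1.08% of all genes passed, these lists gave 0 higher and 0 lower among the other Adamts genes, 0 and 1 of 4 Adamts-like genes, 0 and 0 of 9 other Adam genes, 0 and 2 of 11 inhibitors and partners, 0 and 0 of 11 substrates, and 2 and 1 of 10 procollagen genes.

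Between lining and sublining fibroblasts of injured libraries, where 35.6% of all genes passed, *Adamts16* was higher in the lining (95.7 ± 12.8 against 10.6 ± 4.34 CPM, n = 6, log2 fold change 3.05) and *Adamts10* lower (-0.80), out of 4 tested among the other Adamts genes. Their median was -0.45, against -0.02 over all genes. *Adamtsl1* (1.41) and *Adamtsl5* (1.24) were higher and *Adamtsl4* (-2.43) and *Adamtsl3* (-1.24) lower, so that all 4 of the Adamts-like genes tested differed, with a median of -0.00039. Of 6 other Adam genes, with a median of -0.03, *Adam10* (1.00), a widely expressed sheddase, was higher, and *Adam33* (-5.92, on few UMIs in the lining) and *Adam19* (-2.02) were lower. Of 11 inhibitors and partners 3 were higher, with *Pcsk6* at 317.7 ± 57.8 against 28.0 ± 9.25 CPM (3.43), *Timp3* (1.11) and *Furin* (0.55), and 4 were lower, with *Fbln1* (-2.58), *Pcsk5* (-1.85), *Reck* (-1.71) and *Timp2* (-0.78), and the median was -0.13. Of 11 substrates 4 were higher and 6 lower, with a median of -0.76. *Hbegf*, at 2116 ± 343 against 67.1 ± 33.1 CPM (4.86), *Fn1* (1.95) and *Igfbp5* (1.11) were higher beside *Prg4*, which defined the lining gate and is no finding. *Igfbp3* (-5.27), *Acan* (-4.81, a gate gene), *Vcan* (-3.49) and *Comp* (-3.43) were the most strongly lower. Of 9 procollagen genes 6 were lower, among them *Col1a2* (-3.01), *Col1a1* (-2.18), *Col5a1* (-2.01) and *Col3a1* (-1.98), and 0 were higher, with a median of -1.68. *Igfbp3* in the lining rested on few UMIs.

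The genes most like each of the 7 across classes and libraries were ranked by Pearson's correlation of log2(CPM + 1) over 35 sums of at least 20 cells, among 8105 genes. The sums share libraries and class identity, so these values are a description with no test. *Adamts5* was most like *Pdgfra* (r = 0.931), *Scara3* (0.918) and *Lrrn4cl* (0.895). *Adam12* was most like *Postn* (0.899), *Col12a1* (0.889) and *Fhl2* (0.87). For *Adamts2* the nearest genes were *Arhgef25* (0.963), *Twist1* (0.937) and *Bicc1* (0.922), for *Adamts4* *Palld* (0.877), *Col18a1* (0.869) and *Pdgfrb* (0.828), and for *Adamts12* *Dtx3* and *Lhfp* (both 0.9) and *Rbms3* (0.887). *Adamts1* was nearest *Osmr* (0.856), *Casp12* (0.821) and *Trip6* (0.804). *Adamts15* had the weakest likeness, with *Tshz2* (0.756), *Il6* (0.721) and *Traf3ip2* (0.72). Among the 7 genes themselves, *Adamts4* and *Adamts12* were the most alike (0.814), and *Adamts5* with *Adam12* (-0.191) and with *Adamts4* (-0.164) gave the only values below 0.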

How the data were processed

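Single cells of 9 libraries were profiled by 10x Genomics 5' RNA sequencing. Per the labels and file headers, the authors aligned reads to GRCm38.p6 with Cell Ranger (3.0.2 in 5 headers) and deposited filtered matrices of raw UMI counts, with no normalization. Cells were kept from 500 genes and 1000 UMIs upward, with a mitochondrial share of no more than 10%, and classed by the first marker gate met (immune 3, endothelial 3, mural 4, chondrocyte 4, osteoblast 3, tenocyte 3 or lining 3 markers, then *Prg4*+ *Thy1*-negative with 10 *Prg4* UMIs, then sublining). Doublets were not removed, and leaving out the 5% with the highest Scrublet score was an alternative. UMIs were summed per library and class of at least 10 cells and tested with edgeR 4.0.16 (quasi-likelihood, TMM, filterByExpr, R 4.3.3), with adjustment by Benjamini-Hochberg over all genes. Injury and lineage were tested in 1 fit over the 4 groups, and classes or subsets within libraries with the library as a block. CPM used total UMIs. Positions are from GENCODE annotation of GRCm38, and promoters from RefSeq, with an entry for 3 of the 7 genes. The fits were tested on simulated counts with known changes. Of 2-fold changes they recovered 15.6% for Tom+ and 1.9% for Tom-GFP+ injury in the sublining, 28.4% between injured lineages and 21.4% in the lining. Of 4-fold changes they recovered 87.4%, 39.1%, 89.2% and 80.4%. For the *Lrrc15* split both shares were 100%. In the lining 11 of 110 calls were false. A gene that did not pass in the first 4 of these comparisons may still have changed 2-fold.

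Total depth was 2866464 to 15033902 UMIs per library. The alternatives were DESeq2 1.42.0 and its size factors, no filter on low counts, at least 20 cells per sum, blocks on replicate number or list format, a stricter cell filter, stricter, looser or thinned gates, leaving out doublets or cycling cells, and leaving out each library. Sums of sublining fibroblasts outside or within the universal gate, or without *Lrrc15* UMIs, were added after seeing the data. The rule for named genes took all 7 genes and, of the gene lists at most 4 called genes per direction with the largest fold change. The 7 genes, the lists and the *Lrrc15* split were chosen with earlier results of these data known. Same-numbered Tom+ and Tom-GFP+ injured libraries gave correlations of their deviations from the group means of 0.3675 and 0.0647 over 2 pairs. With 2 Tom-GFP+ libraries the crossed pairs must give the same values with the sign reversed, so these values cannot decide whether the libraries are paired. The labels tie no libraries to each other, so the numbers were not taken as pairs, and the main tests between lineages ignore any matching of mice. The lone Tom-GFP+ steady-state library was assumed to vary like the other groups.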

Additional observations from a re-analysis of the deposited data

Results flagged for a closer look

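The 4 Tom+ injured libraries were examined in 63 combinations of gene and cell class or subset, of which 2 held a library far from the others by Dixon's test, where chance gives about 1 in 20. Both concern *Prg4*+ *Thy1*-negative cells of the Tom+ injured libraries, sums of 11 to 58 cells. *Adam12* was at 84.8 CPM in Tom+ injured 1 against 3.07, 0 and 11.2 CPM in the others. *Adamts2* was at 52.3 CPM in Tom+ injured 4 against 92.5, 99.8 and 95.4 CPM.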

How the results depend on the processing

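Of 114 tests of the 7 genes 32 passed. Over their 601 alternatives 528 stayed past the threshold, 73 did not and 0 turned sign, and 16 of the 32 passed under every alternative. In the Tom+ injury comparison of sublining fibroblasts 3 of the genes passed, and 1 with universal cells only. In Tom-GFP+ cells 1 passed, against 2 with DESeq2, no filter on low counts or the list format block, 0 with thinned gates, outside the universal gate or in *Lrrc15*-negative cells, and 0 to 2 with a library left out. Between lineages in the injured state 1 passed without the filter. In lining injury 1 passed, against 0 with the format block, stricter gates, thinned gates or doublets left out, and 0 to 1 with a library left out. In the other classes 1 passed with no filter and 1 with looser gates. In the main fit over injured classes 1 gene was higher and 5 lower in the lining, and 6 were lower in chondrocyte-lineage cells. In mural cells 3 were higher and 1 lower, and in *Prg4*+ *Thy1*-negative cells 1 was lower. With at least 20 cells per sum 11 of 28 tests passed, and 11 to 17 with a library left out (the lowest, also of 28, without Tom+ injured 1). The main fit tested all 7 genes in every class, while in both of these alternatives some classes had too few libraries to be fitted. In the steady state the main fit tested 4 genes per class, of which 1 was lower in lining and 2 in chondrocyte-lineage cells. There 12 of 28 tests passed with no filter, 1 of 10 with stricter gates, 6 of 16 with doublets and 5 of 16 with cycling cells left out. With a library left out 1 to 4 passed (the lowest, of 6 tests, without Tom+ steady state 1). Of the universal comparisons, with 2 genes higher and 2 lower in the main fit, 2 of 6 passed with stricter and 2 of 5 with thinned gates. Changes that did not pass turned sign as follows in Tom+ sublining fibroblasts: *Adamts1* to 0.40 and *Adamts2* to 0.51 in universal cells (*Adamts2* -0.36 to 0.17 with a library left out), *Adamts12* to -0.032 with the format block (-0.019 to 0.31 with a library left out), and *Adamts15* to 0.14 with thinned gates, 0.034 outside the universal gate, 0.56 within it and 0.018 in *Lrrc15*-negative cells (-0.62 to 0.13 with a library left out). In Tom-GFP+ cells *Adamts1* turned to 0.082 and *Adamts2* to 0.31 in universal cells (*Adamts2* -0.24 to 0.15 with a library left out), and *Adamts15* to -0.74 with the format block. The cause of these shifts was not tested.

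Without the filter on low counts the counts over all genes moved from 1874 to 3139 for Tom+ injury, 140 to 1764 for Tom-GFP+ injury, 1 to 429 and 3 to 261 between lineages in the injured and steady state, 0 to 83 for the interaction, 350 to 1122 in the lining, 43 to 297 in osteoblast-lineage cells, 2791 to 4416 for steady-state classes (where the median log2 fold change of all genes became -0.481) and 1566 to 2506 for universal cells. DESeq2 called 546 for Tom-GFP+ injury, 52, 26 and 1 for the lineage tests and the interaction, and 845 against 1491 for *Lrrc15*. The format block gave 657 for Tom-GFP+ injury, 4 and 16 between lineages and 70 in the lining. Other gates gave 217 in osteoblast-lineage cells (looser), 1703 for steady-state classes and 969 for universal cells (stricter), and 1825, 911 and, for Tom-GFP+ injury, 89 (thinned). Universal cells alone gave 366 for Tom+ injury, cells outside that gate 86 and cells without cycling ones 339 for Tom-GFP+ injury, a stricter cell filter 24 in osteoblast-lineage cells and sums of at least 20 cells 1812 for steady-state classes. With a library left out, Tom+ injury gave as few as 133, Tom-GFP+ injury 0 to 1119, lineage in the injured state 0 to 8 and in the steady state 0 to 18, the lining 28 to 580, injured classes as few as 4585 of 7494, steady-state classes 608 and *Lrrc15* 874. With the replicate number as a block 3 of the 7 genes passed in Tom+ injury, 0 between lineages in the injured state (3 of all genes) and 1 in the lining (171 of all genes), and it changed no call of the 7 genes. Depth limits, among others, *Adam12* in the steady state, with 3 UMIs in each Tom+ library, and *Adamts4* and *Adamts15* in chondrocyte-lineage cells, with 4 and 3 UMIs.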
